A study of Mus musculus with 2 samples.

Results

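The genes described here encode the vesicle trafficking machinery of the cell: Rab GTPases, SNARE proteins and their partners. They were chosen by a rule on symbols, written with earlier results of these data known, as the Rab, syntaxin (Stx), syntaxin-binding (Stxbp), Vamp, Snap, Vti1, Sytl and Exoc genes together with Napa and Nsf. This gave 99 of the 14261 rows in the deposited table, of which 50 are Rab genes and 26 are SNARE genes. The remaining 23 are 7 syntaxin-binding genes, 8 exocyst genes, 5 Sytl genes, Napa, Nsf and Snap91, which encodes a clathrin adaptor and no SNARE.

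RNA was sequenced from 2 suspension cultures of mouse embryonic stem cells (ES cells, given as TRE-ESCs), in low-adsorption dishes and labelled 36 h. Their N2B27 medium held 2i, inhibitors of MEK and GSK3 kinases, with the cytokine LIF, a mix that maintains naive pluripotency. Doxycycline (dox), the inducer of tetracycline-controlled promoters, was given to one culture and not to the other, in a study of c-Jun and differentiation. The labels do not give the construct, the number of clones or the strain, and cells given dox without a transgene were not analysed here. With 1 library per group there are no replicates, so no test was made and every difference below describes these libraries.

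Rab proteins are small GTPases that mark membranes. In the GTP-bound form, set by exchange factors (GEFs) and ended by GTPase-activating proteins (GAPs), each recruits effectors such as motors and tethers to one compartment. SNAREs then drive fusion: an R-SNARE, usually of the Vamp family on the vesicle, zips with Q-SNAREs on the target, and NSF with its adaptor alpha-SNAP (Napa) takes the spent complexes apart. The exocyst is a tether that holds secretory vesicles at the plasma membrane.

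Values are whole numbers on a count scale normalized by the authors, with the same quartiles (14, 62 and 184) in both libraries, so sequencing depth is unknown and no counting interval is given. Jun stood at 55 without dox and 3821 with dox. Of 7 ES cell markers all were at or above the floor defined next, 6 had the smaller value with dox and 4 were at least 2-fold lower, with Pou5f1 at 3230 and 3572 and Nanog at 2508 and 623. Among the markers of other cell types in the table, 0 of 9 for fibroblasts, 0 of 4 for neurons and 0 of 2 for endoderm reached the floor. Of 4 blood and macrophage markers 2 did, with a summed value of 20 without dox and 226 with dox, mostly from Csf1r at 1 and 111 and Cd68 at 19 and 96, while Ptprc stood at 0 and 19 and Lyz2 at 0 in both. Of 5 trophoblast markers only Krt7 did, at 0 and 374, and the list summed to 61 and 449. The part of such cells in the differences below was not tested.

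For each gene the log2 ratio was taken of the value with dox plus 10 over the value without dox plus 10, and genes entered where the larger value was at least 50 (the floor). This floor was reached by 58 of the 99 members; 41 lay under it, and 5 of those were listed at 0 in both libraries. At least 2-fold higher with dox were 5 members, Rab31, Rab15, Vamp8, Stxbp5 and Vamp2, and 0 were at least 2-fold lower. That is 8.62% of the 58, beside 9.23% of all 8547 genes at or above the floor for the higher calls, and 5.49% of all genes for the lower calls. The share of members at least 2-fold higher was therefore near that of all genes.

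Smaller differences leaned to higher values with dox. At least 1.5-fold higher were 17 members (29.3%), beside 16.7% of all genes, and 1 member, Rab4a, was at least 1.5-fold lower (1.72%), beside 17.7% of all genes. The value with dox was the larger in 43 of the 58 members (74.1%), beside 44.1% of all genes, and the smaller in 15, beside 54.9%. The median log2 ratio was 0.28 over the members and −0.08 over all genes. Of the 58 members 47 were at 50 or more in both libraries, 9 only with dox and 2 only without dox. Of all genes, 752 were there only with dox and 749 only without. The 9 were Rab31, Rab15, Vamp8, Stxbp5, Rab43, Snap29, Snap47, Stx7 and Vamp4. All of them but Vamp4 are among the 17 at least 1.5-fold higher, with a direction fixed by the floor. A gene that enters through 1 library alone differs by that choice, so the 47 were also read alone for direction and median. Of these 34 had the larger value with dox (72.3%), beside 42.8% of the 7046 such genes in all, and their median was 0.22. The share of the 47 past 1.5-fold was not taken. Of the 41 members under the floor, with values from 0 to 46, 18 were larger with dox, 14 smaller and 9 equal. These counts are a description with no test.

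**Figure D1:**
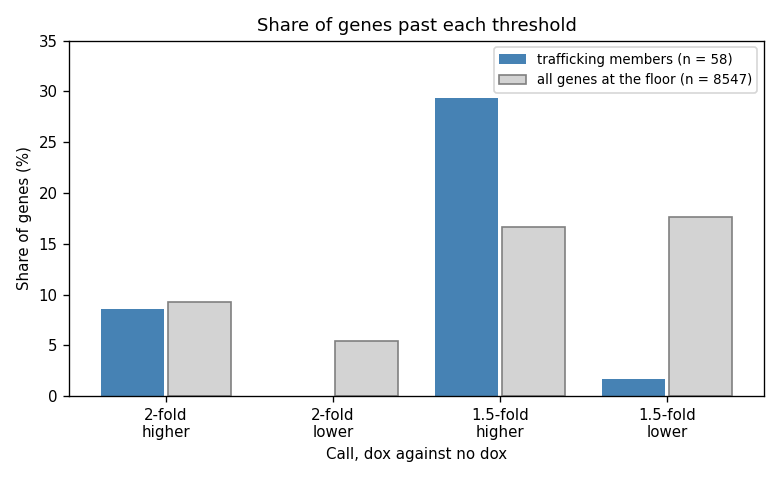
Share of genes (%) at least 2-fold or 1.5-fold higher or lower with dox, for the 58 trafficking members and for all 8547 genes at or above the floor. At 2-fold the shares higher were 8.62% and 9.23%, whereas at 1.5-fold they were 29.3% and 16.7%. These shares include genes that reached the floor only with dox, whose direction is fixed by the floor.

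**Figure D2:**
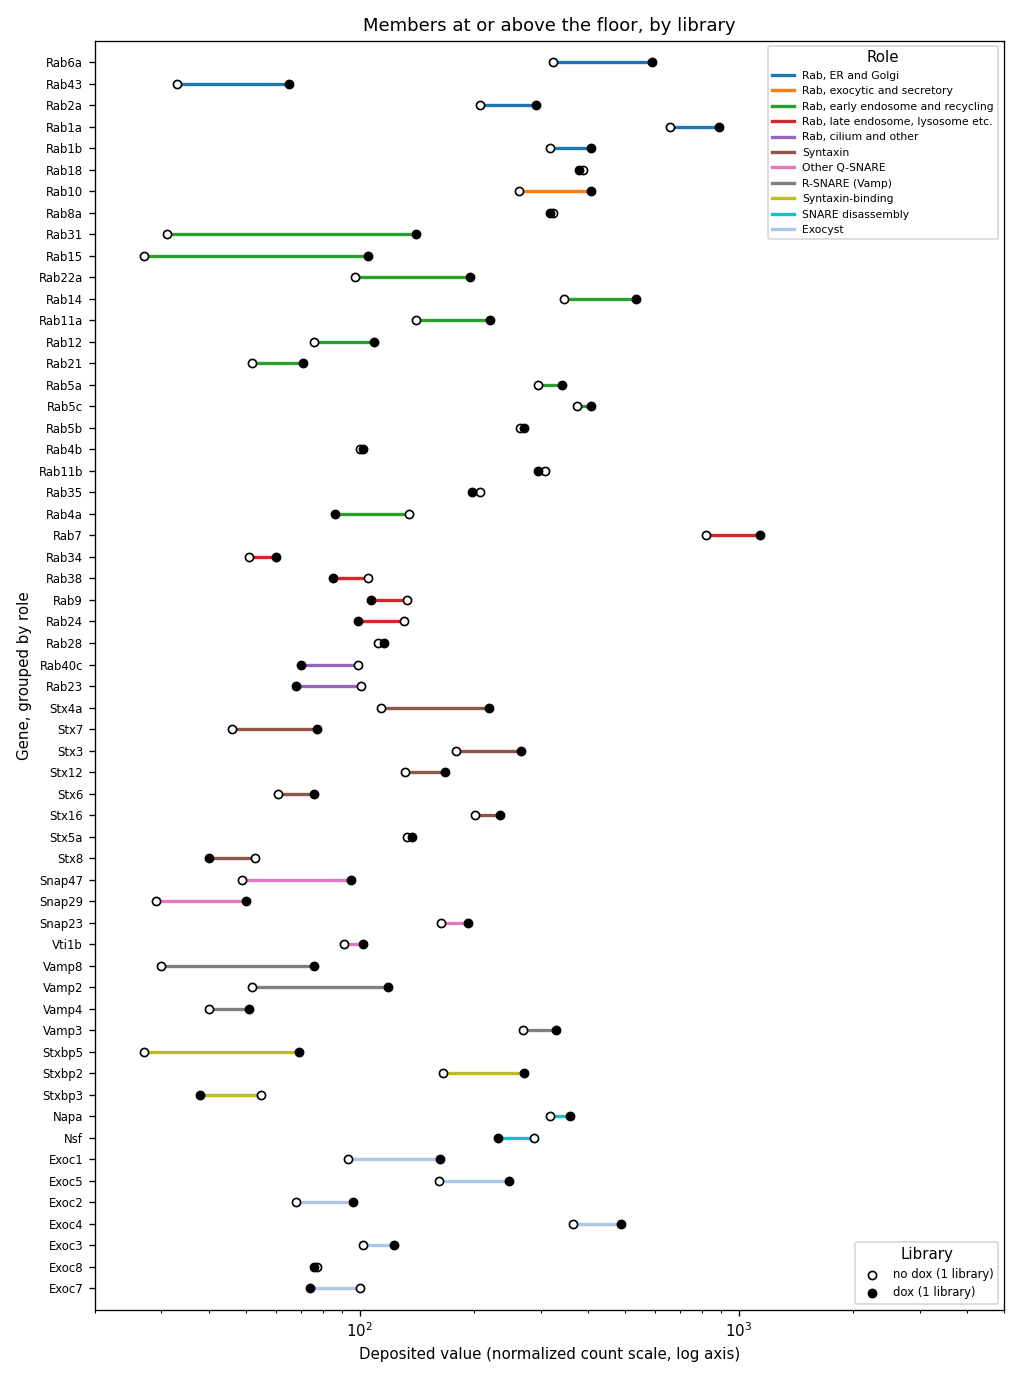
Deposited value (log axis) of each of the 58 members that reached the floor, without dox (open points) and with dox (filled points), 1 library each, joined by a line coloured by role. The longest lines are those of Rab31, at 31 and 141, and Rab15, at 27 and 105, while most lines are short and run to the right.

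Since c-Jun is part of AP-1, which binds TGACTCA and TGAGTCA, the stretches before the starts of members were searched for motifs. These were the wider pattern TGANTCA, with N any base, and the related TGACGTCA. Each pattern reads the same on both strands, and their matches cannot overlap each other. RefSeq windows of build GRCm38.p6, from 250 bases before to 50 bases after each start, were at hand for 85 of the 99 members (106 windows). TGANTCA stood in 4 of these windows (3.77%), beside 7.81% of all 32851 windows, and TGACGTCA in 3 (2.83%), beside 1.79%. The 4 with TGANTCA belonged to Rab15 (log2 ratio 1.64), Exoc5 (0.58), Rab34 (0.20) and Rab39b, which was under the floor at 30 and 33. The 3 with TGACGTCA belonged to Rab5a (0.20), Napa (0.17) and Stxbp3 (−0.44). Both shares for TGANTCA count any middle base, and the 4 matches among members all read TGACTCA or TGAGTCA. The share of TGACTCA and TGAGTCA alone over all windows was not taken. Windows of a gene can overlap, as those of Exoc1 do. By gene, TGANTCA stood in 4 of 85 members and in 2425 of all 27025 genes, and TGACGTCA in 3 and 549. The median share of G and C in the 250 bases before the start was 52.4% over all windows. Most member windows lay above that, and the part of base composition in the lower TGANTCA share was not tested. The windows of the members at least 1.5-fold higher, 26 windows of 16 genes, held TGANTCA once, in Rab15, and TGACGTCA 0 times. A match is a description of letters, not a binding site. The 250 bases before the start are shown for 4 members as examples. These are Rab31, with the highest ratio among members at the floor and no match, and Rab15, with a high ratio and a match. The others are Rab34, which holds TGAGTCA, and Rab5a, which holds TGACGTCA, with log2 ratios of 0.20 each. They are read 5′ to 3′ on the strand of the gene, with the matches in capitals. Rab31 is taken from chr17:65772753-65773002 on the minus strand, Rab15 from chr12:76818375-76818624 on the minus strand, Rab34 from chr11:78188177-78188426 on the plus strand and Rab5a from chr17:53478984-53479233 on the plus strand.
Rab31: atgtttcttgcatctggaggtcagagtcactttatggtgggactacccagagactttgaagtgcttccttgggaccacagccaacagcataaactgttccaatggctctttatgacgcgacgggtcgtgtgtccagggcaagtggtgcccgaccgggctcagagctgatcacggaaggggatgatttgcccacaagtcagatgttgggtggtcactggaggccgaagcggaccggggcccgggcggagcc
Rab15: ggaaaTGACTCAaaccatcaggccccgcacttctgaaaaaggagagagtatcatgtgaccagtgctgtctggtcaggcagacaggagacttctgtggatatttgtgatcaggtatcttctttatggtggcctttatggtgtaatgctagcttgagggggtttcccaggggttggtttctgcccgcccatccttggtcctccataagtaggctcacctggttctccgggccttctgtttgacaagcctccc
Rab34: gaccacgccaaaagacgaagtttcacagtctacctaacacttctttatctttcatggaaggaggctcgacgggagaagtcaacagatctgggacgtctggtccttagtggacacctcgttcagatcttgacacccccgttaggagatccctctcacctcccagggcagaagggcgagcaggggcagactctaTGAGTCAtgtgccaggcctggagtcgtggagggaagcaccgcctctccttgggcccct
Rab5a: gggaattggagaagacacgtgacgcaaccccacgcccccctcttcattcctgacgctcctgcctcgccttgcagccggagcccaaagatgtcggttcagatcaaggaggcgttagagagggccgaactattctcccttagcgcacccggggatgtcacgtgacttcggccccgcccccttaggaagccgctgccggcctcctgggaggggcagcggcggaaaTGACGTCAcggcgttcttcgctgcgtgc
The Rab15 match begins 245 bases before one of the 4 Rab15 starts in RefSeq, and the other starts hold none. The Rab34 match begins 58 bases before a Rab34 start in RefSeq, and the other Rab34 start holds none. The Rab5a match begins 28 bases before the start.

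Rabs of early and recycling endosomes held the only Rabs at the floor that passed 2-fold, Rab31 and Rab15, both of which reached it only with dox. All 14 of these genes reached the floor, with a median log2 ratio of 0.29. Of the 12 at 50 or more in both libraries 9 had the larger value with dox, with a median of 0.16. Rab31, which works between the trans-Golgi network and endosomes, stood at 31 without dox and 141 with dox, 3.68-fold higher on the scale with the pseudocount (log2 ratio 1.88). The gene spans 65651729 to 65772752 of chromosome 17, minus strand (GRCm38, GENCODE M21). In the library without dox 36.3% of rows had a smaller value than Rab31, and with dox 68.8% did. Rab22a, its close relative on early endosomes, stood at 97 and 196, a log2 ratio of 0.95, just under 2-fold. Rab15, a regulator of recycling from endosomes, stood at 27 and 105, 3.11-fold higher (log2 ratio 1.64). The gene spans 76797960 to 76822908 of chromosome 12, minus strand. These are the only members that stayed at least 2-fold higher with a pseudocount of 50, at log2 ratios of 1.24 for Rab31 and 1.01 for Rab15.

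The central Rabs of the same compartments differed less. Rab5, the regulator of early endosome fusion, has 3 paralogs, and all lay close to a ratio of 1: Rab5a stood at 295 and 341, Rab5b at 264 and 271 and Rab5c at 375 and 407. The recycling endosome pair was unequal, with Rab11a at 141 and 220 (log2 ratio 0.61) and Rab11b at 308 and 295 (−0.06). Rab14, which acts between Golgi and endosomes, stood at 345 and 536. Of the fast recycling pair Rab4a stood at 135 and 86, the lowest log2 ratio among the 58 members at −0.59, and Rab4b at 100 and 102. Rab4b shares 1280 exon bases with Gm21983 on the same strand, so their reads cannot be told apart. Rab35, another recycling Rab, stood at 208 and 198, Rab12 at 76 and 109 and Rab21, which carries integrins from the surface, at 52 and 71. In the Rab4 and Rab11 pairs 1 paralog was past 1.5-fold and the other was not, whereas all Rab5 paralogs were within 1.5-fold. RSEM, listed among the authors' tools, divides reads that fit more than 1 paralog, so values of close paralogs are less certain than those of single genes.

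Rabs of the endoplasmic reticulum and Golgi had 6 of 12 genes at the floor, with a median log2 ratio of 0.44. Of the 5 there in both libraries, which leaves out Rab43, 4 had the larger value with dox. Rab6a, which directs traffic at the Golgi, stood at 323 and 589, a log2 ratio of 0.85. Rab1a, which acts from the endoplasmic reticulum to the Golgi, stood at 660 and 884, and its paralog Rab1b at 317 and 408. Rab2a, on the same route, stood at 208 and 291. Rab43 stood at 33 and 65, and it shares 4164 exon bases with Gm45140 on the same strand, so its reads cannot be told apart from those of that gene. Exons of Rab6a share 708 bases with Mrpl48 on the other strand, and no source used here says whether reads were assigned by strand. Rab18, a Rab of lipid droplets and the endoplasmic reticulum, stood at 389 and 380. The log2 ratios of the 6 genes ran from −0.03 to 0.85, so 0 of them reached 2-fold.

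Of 10 Rabs of exocytosis and regulated secretion only Rab8a and Rab10 reached the floor. Rab8a, which carries cargo from the Golgi to the surface, stood at 324 and 317, and Rab10, a relative on overlapping routes, at 263 and 407 (log2 ratio 0.61). The Rabs of regulated secretion were low in both libraries. Rab3a stood at 19 and 20, Rab3b at 6 and 29 and Rab3d at 4 and 7, and Rab27a stood at 26 and 14 and Rab27b at 0 and 4. The synaptotagmin-like proteins bind Rab27 on secretory granules, and 0 of their 5 genes reached the floor: Sytl2, Sytl4 and Sytl5 were listed at 0 in both libraries, Sytl1 at 2 and 6 and Sytl3 at 20 and 13. All 7 of these Rab27 and Sytl genes stood under the floor with and without dox.

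Rabs of late endosomes, lysosomes and related organelles gave a median log2 ratio of −0.28 over the 5 of 10 genes at the floor, with 3 smaller and 2 larger with dox, and of −0.06 with the trend of log2 ratio on transcript length removed. Rab7, which drives fusion with lysosomes, stood at 818 and 1136 (log2 ratio 0.47). Rab9, which serves return from late endosomes to the Golgi, stood at 133 and 107. Rab38, known from melanosomes, stood at 105 and 85, and Rab24, linked to autophagy, at 131 and 99. Rab24 shares 1258 exon bases with Prelid1 on the other strand. Rab34 stood at 51 and 60. Under the floor, Rab7b, a late endosomal Rab of immune cells, was listed at 0 and 29 and Rab29 at 35 and 12. Rab7b appeared with dox beside the macrophage markers given above, which summed to 20 and 226, and their part in it was not tested.

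In the remaining Rab group, of cilia and other roles, 3 of 4 genes reached the floor, with a median log2 ratio of −0.45. Rab23, a ciliary Rab known as a negative regulator of Hedgehog signalling, stood at 101 and 68. Rab40c, which recruits a ubiquitin ligase, stood at 99 and 70, and Rab28 at 112 and 116. Over all 30 Rabs at the floor the median log2 ratio was 0.20. Over the 27 at 50 or more in both libraries it was 0.12, with 17 larger and 10 smaller with dox.

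**Figure D3:**
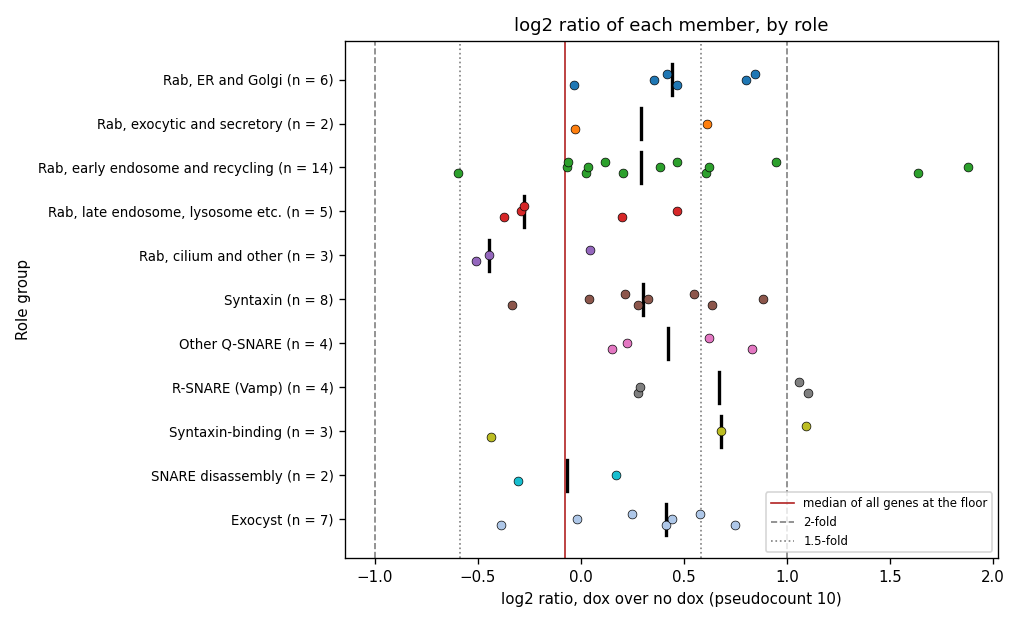
Log2 ratio of dox over no dox (pseudocount 10) for each of the 58 members, by role group, with the group median as a black bar, the median of all genes in red and the 2-fold and 1.5-fold lines in grey. Points past 2-fold stand only on the right, in the early endosome, Vamp and syntaxin-binding groups, and the medians of the late endosome and ciliary groups lie at −0.28 and −0.45.

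Of 26 SNARE genes 16 reached the floor, with a median log2 ratio of 0.31. Of these, 5 reached it only with dox and 1, Stx8, only without dox, which fixes their direction. The 10 at 50 or more in both libraries all had the larger value with dox, with a median of 0.28. Among the R-SNAREs, Vamp8, the endosomal and lysosomal R-SNARE of secretion and autophagosome fusion, stood at 30 and 76, 2.15-fold higher (log2 ratio 1.10). The gene spans 72385223 to 72390703 of chromosome 6, minus strand. Vamp2, the R-SNARE of regulated exocytosis, stood at 52 and 119, 2.08-fold higher (log2 ratio 1.06), and spans 69088490 to 69092384 of chromosome 11, plus strand. Vamp3, the R-SNARE of recycling endosomes, stood at 270 and 329 and Vamp4, of the trans-Golgi network, at 40 and 51. Vamp1 was under the floor, at 25 and 10, and Vamp5 was listed at 0 in both. Vamp8 and Vamp4 reached the floor only with dox, and Vamp2 and Vamp3 in both libraries. The pair past 2-fold was so narrowly: with a pseudocount of 50 their log2 ratios were 0.66 for Vamp8 and 0.73 for Vamp2.

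Among syntaxins, the Q-SNAREs of target membranes, 8 of 15 genes reached the floor, 6 of them in both libraries, and these 6 had the larger value with dox, with a median log2 ratio of 0.30. Stx4a, the syntaxin of the basolateral surface, had the highest log2 ratio among them and stood at 114 and 219 (log2 ratio 0.89), and Stx3, that of the apical surface, at 179 and 267 (0.55). Stx2, also of the plasma membrane, was under the floor at 16 and 40. Of the endosomal syntaxins Stx7 stood at 46 and 77, reaching the floor only with dox, and Stx12 at 132 and 168. Stx8, which pairs with Stx7 in late endosomes, stood at 53 and 40, reaching the floor only without dox. The Golgi syntaxins lay closer to a ratio of 1, with Stx5a at 133 and 137, Stx16 at 201 and 235 and Stx6 at 61 and 76. Stx1a, a syntaxin of neurons, stood at 16 and 15. Stx11, a syntaxin of cytotoxic lymphocytes, was listed at 0 and 11.

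Of the 5 other Q-SNAREs 4 reached the floor, Snap47 and Snap29 only with dox. Snap23, the widely expressed partner of plasma membrane syntaxins, stood at 164 and 193. Snap47 stood at 49 and 95 (log2 ratio 0.83) and Snap29, which acts in autophagosome fusion, at 29 and 50. Snap47 shares 307 exon bases with Jmjd4 on the other strand. Vti1b stood at 91 and 102, and Vti1a, under the floor, at 17 and 35. The ATPase gene Nsf stood at 288 and 231, and the adaptor gene Napa at 317 and 358, so the disassembly pair lay on either side of a ratio of 1.

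Syntaxin-binding genes include those of the Munc18 proteins, which guide SNARE assembly, and of the tomosyns, which compete for it. Stxbp5, the tomosyn gene, stood at 27 and 69, 2.14-fold higher (log2 ratio 1.09), reaching the floor only with dox, and spans 9755547 to 9901079 of chromosome 10, minus strand. Its paralog Stxbp5l, under the floor, went the other way, at 23 and 0. Stxbp2, the Munc18 partner of Stx3 in epithelia, stood at 166 and 272 (log2 ratio 0.68). Stxbp3, the partner of Stx4, stood at 55 and 38 (−0.44), reaching the floor only without dox, which fixes its direction. With the trend of log2 ratio on transcript length removed the value of Stxbp5, whose longest transcript has 8825 nt, was 0.81, no longer 2-fold.

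The exocyst has 8 subunits, all listed, and 7 reached the floor with a median log2 ratio of 0.41. Of these 5 had the larger value with dox and 0 passed 2-fold. Exoc1 stood at 93 and 163 (log2 ratio 0.75), Exoc5 at 162 and 247, Exoc2 at 68 and 96, Exoc4 at 366 and 490 and Exoc3 at 102 and 123. Exoc8 stood at 77 and 76, and Exoc7, which places the complex on the plasma membrane, at 100 and 74 (−0.39). Exoc6 was under the floor at 46 in both libraries, while its paralog Exoc6b, outside the symbol rule, stood at 262 and 741, 2.76-fold higher. Subunits of 1 complex thus ran from −0.39 to 0.75, and with the length trend removed their median was 0.21. Exons of Exoc5 share 528 bases with Ap5m1 on the other strand.

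The other genes of the trafficking pathway were taken from 12 lists, without the members. Over all genes 9.23% were at least 2-fold higher and 5.49% lower. Among Rab GEFs, 4 of 27 genes were higher (14.8%) and 2 lower, with a median log2 ratio of 0.27. Among Rab GAPs of the TBC family 4 of 26 were higher (15.4%) and 0 lower (median 0.27), and among Rab effectors 3 of 33 were higher (9.09%) and 2 lower (median 0.26). Of the higher calls 2 of 4 GEFs, 3 of 4 GAPs and 3 of 3 effectors reached the floor only with dox, which fixes their direction. The 2 lower GEFs and 2 lower effectors reached it only without dox, which fixes theirs as well. Over genes at 50 or more in both libraries the medians were 0.27, 0.23 and 0.26. Over all genes of each list at the floor, the medians with the length trend removed were 0.13, 0.13 and 0.12. That of the 58 members was 0.33. Among the effectors Micall1, a scaffold of recycling endosomes, stood at 4 and 410. Chosen after its values were seen, Myo5b, the myosin motor recruited by Rab11, stood at 3 and 230. Likewise Rin1, an exchange factor for Rab5, stood at 6 and 106. The log2 ratios of these 3 genes, 4.91, 4.21 and 2.86, lie above those of all 58 members, from values of 6 or less without dox that make them depend on the pseudocount.

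Either way, 14.7% of all genes passed 2-fold, and each list of coats, adaptors, sorting nexins, Arf GTPases and other SNAREs had a smaller share. COPI and COPII genes, which form vesicles between the endoplasmic reticulum and the Golgi, gave 1 call among 21, higher with dox, and a median of 0.37. Of the 20 at the floor in both libraries 16 had the larger value with dox. The gene past 2-fold was Sec24d, a COPII cargo adaptor named after its values were seen, at 56 and 222. Clathrin and adaptor genes gave 3 calls among 29, of which 2 were higher and 1 lower (median 0.04). Cltc, the clathrin heavy chain gene, stood at 1460 and 3248 and Ap2b1, of the endocytic adaptor, at 337 and 744. With the length trend removed their log2 ratios were 0.92 and 0.95, no longer 2-fold. Retromer and sorting nexin genes gave 1 call among 24, Snx6 at 176 and 473 (median 0.06). Arf GTPases gave 1 call among 19, also higher (median 0.01), from a gene that reached the floor only with dox. The other SNAREs and their regulators gave 1 among 15, Exoc6b (median 0.00).

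HOPS, CORVET and GARP genes, tethers of endosomes, the lysosome and the trans-Golgi network, had 0 of 12 past 2-fold and 9 with the smaller value with dox, with a median log2 ratio of −0.20. COG and TRAPP genes, tethers of the Golgi, had 0 of 19 past 2-fold and a median of 0.06. The genes that attach the lipid anchor of Rabs or recycle them had 0 of 9 past 2-fold and a median of −0.12. Synaptotagmins, which include the calcium sensors of fusion, were listed together with the extended synaptotagmins (Esyt genes). The list gave 2 calls among 5, both of which reached the floor only with dox. The 3 there in both libraries were Syt9, Esyt1 and Esyt2, with a median of −0.08.

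**Figure D4:**
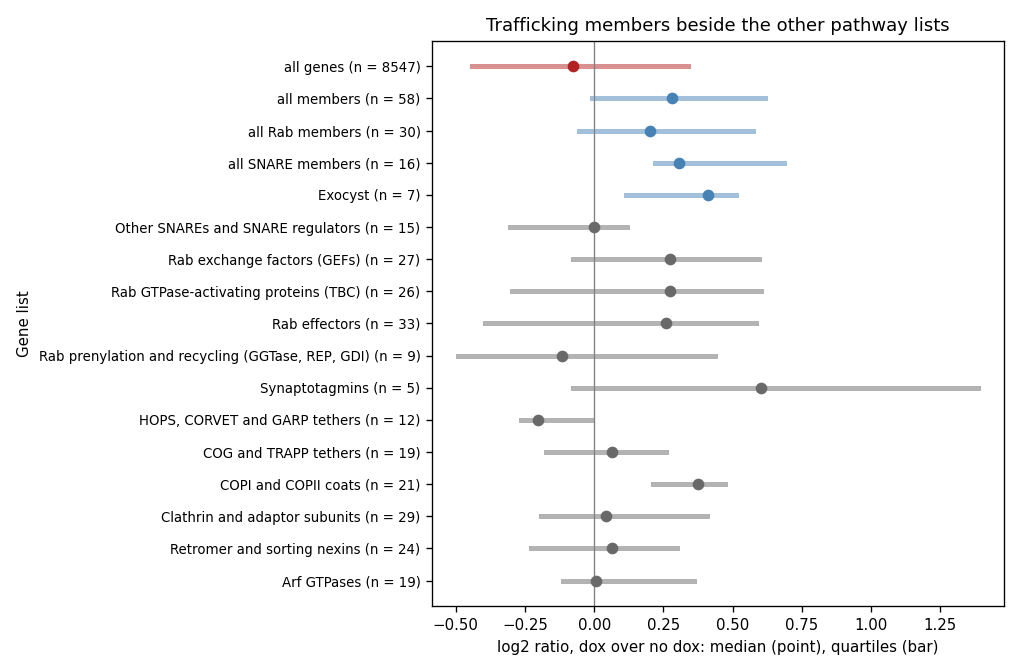
Median log2 ratio of dox over no dox (point) with the lower and upper quartile over genes (bar) for all genes (red), the trafficking members and groups of them (blue) and 12 other pathway lists (grey), over genes at or above the floor. The members' median is 0.28 and that of all genes −0.08, with the HOPS, CORVET and GARP list at −0.20 and the COPI and COPII list at 0.37.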

How the data were processed

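Per the submitters' processing notes, the authors used bcl2fastq, Bowtie2 and RSEM on build mm10, with versions, annotation, normalization and strand handling not given in the sources used here. Deposited values were treated as a score (whole numbers that the authors had apparently normalized), because 75.5% of sorted positions held equal values in both libraries (tolerance 0). Such values do not keep depth, so no count model was used. Both sample columns were used, and 0 others were left.

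Log2 ratios used a pseudocount of 10, a floor of 50 on the larger value and thresholds of 2-fold and 1.5-fold, computed on the whole table. All 99 members matched GENCODE M21 (GRCm38, the assembly of mm10) by symbol. The length trend was removed with lowess (fraction 0.3), with the median of the trend added back. The members, role groups and lists were chosen with earlier results of these data known. Named were members past 2-fold, the 3 with the largest values in each role group, paralogs of members past 2-fold, members at 0 in one library and at least 20 in the other, and list genes past 2-fold with a larger value of at least 250; other members were named after their values were seen, and some are not reported here by symbol. Alternatives were the pseudocount, the floor, the threshold, centring and the length trend. The floor, the log2 ratio and the 2-fold call were tested on simulated data, and the other steps were not. All steps were run in Python 3.11.15 with pandas 2.3.3, numpy 2.4.6 and statsmodels 0.14.6.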

Additional observations from a re-analysis of the deposited data

How the results depend on the processing

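With 1 library per group no spread between cultures is known and no replicate could be left out. No paired analysis was possible because each group had 1 library. The count of members at least 2-fold higher with dox was 5 as reported, 2 with a pseudocount of 50 (Rab15 and Rab31), 8 without any floor and 0 at a floor of 250, which left 19 members; of all genes 9.23%, 5.83%, 9.21% and 9.56% were higher under these settings in turn. It was 17 at a threshold of 1.5-fold and 0 at 4-fold, beside 16.7% and 3.11% of all genes. It was 6 with a pseudocount of 1 and with the median of all genes set to 0, Rab22a being added in both. With the length trend removed it was 5, 4 of them shared, Stx4a taking the place of Stxbp5. Of all genes 10.3%, 10.2% and 8.49% were higher under these settings in turn. The count lower was 0 as reported, 2 without any floor (Rab29 and Stxbp5l) and 1 at 1.5-fold (Rab4a). Of all genes 5.49%, 5.84% and 17.7% were lower under these settings in turn. The members' median log2 ratio of 0.28 kept its sign under all 6 alternatives that give one: it was 0.33 with a pseudocount of 1, 0.22 with a pseudocount of 50, 0.22 without any floor, 0.35 at a floor of 250, 0.36 with the median of all genes set to 0 and 0.33 with the length trend removed. Among the other lists the median of the Arf GTPases became −0.044 without a floor and that of the retromer and sorting nexins −0.066 at a floor of 250. Other medians moved further at a floor of 250. There they were 0.49 for 5 Arf GTPases, 0.51 for 4 other SNAREs and regulators and 0.41 for 15 clathrin and adaptor genes, all above the members' 0.35. They were −0.51 for 2 HOPS, CORVET and GARP genes and −0.30 for 4 genes of Rab lipid anchors and recycling. The cause of these shifts was not tested.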
